A study of Mus musculus with 24 samples.

Results

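Major urinary proteins are small secreted proteins of the lipocalin family, made by the liver and passed into urine, where they bind and slowly release pheromones. Their RNA was followed in mouse liver for 8 genes chosen by name: Mup1, Mup3, Mup7, Mup8, Mup12, Mup15, Mup20 and Mup21. These 8 were among 22 rows named Mup and a number, and among 25239 genes listed in each of 4 deposited RNA tables. Sites of N6-methyladenosine (m6A, a methyl mark on RNA) assigned to them numbered 24 of 52025 at 8 weeks, 21 of 52315 at 28 weeks and 23 of 51883 in the wild-type comparison of ages.

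The livers came from C57BL/6 mice in 4 groups of 3 animals, ApoF gene knockout (KO) and wild type (WT) at 28 weeks of age and ApoF gene knockout and wild type at 8 weeks. ApoF is an apolipoprotein that the liver releases onto circulating lipoproteins. Each animal gave an input library of total RNA and an IP library of the RNA bound by an m6A antibody, 24 libraries in all, so that input and IP values of a group come from the same animals. The labels do not state the sex of the animals, how the allele was made or in which cells it was deleted. Apof itself was reduced and not absent, at 14414 normalized counts in 8-week knockouts and 23454 in 8-week wild types, with a log2 ratio of -0.70 ± 0.11 (SE) in the authors' deposited table (adjusted p = 2.3e-08). In 28-week livers the same gene stood at 11839 in knockouts and 23860.3 in wild types, a ratio of -1.01 ± 0.16 in the authors' deposited table (adjusted p = 2.5e-06).

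Mup genes lie side by side in one cluster, and most of them are near-identical copies. In adult mouse liver their transcription is driven by growth hormone, whose male pattern of release acts through STAT5, and by androgens and glucocorticoids, so that males usually make far more than females. Mup20 encodes darcin, a male scent protein that attracts females. Mup3 and Mup21 belong to the more divergent members at the edge of the cluster, and Mup1, Mup7, Mup8, Mup12 and Mup15 to the closely related copies in its middle. Reads from such copies can be split among the rows in ways the counting decides, so the rows are given singly and also summed.

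In the RefSeq order of chromosome 4, Mup7 was place 3 of 22 Mup genes, Mup8 place 5, Mup1 place 7, Mup12 place 10 and Mup15 place 14. Mup20, Mup3 and Mup21 took places 20, 21 and 22. RefSeq promoter windows (build GRCm38.p6, minus strand, 250 bases before to 50 after the annotated start) were at hand for 4 of the 8 genes. They are shown because they let a reader see how alike these copies are around their annotated starts. Capitals mark the longest run that all 4 windows share, which was looked for after the sequences were seen. The windows are chr4:60070426-60070725 for Mup7, chr4:61439655-61439954 for Mup15, chr4:62087268-62087567 for Mup3 and chr4:62150792-62151091 for Mup21, each printed 5′ to 3′ along the gene.
Mup7: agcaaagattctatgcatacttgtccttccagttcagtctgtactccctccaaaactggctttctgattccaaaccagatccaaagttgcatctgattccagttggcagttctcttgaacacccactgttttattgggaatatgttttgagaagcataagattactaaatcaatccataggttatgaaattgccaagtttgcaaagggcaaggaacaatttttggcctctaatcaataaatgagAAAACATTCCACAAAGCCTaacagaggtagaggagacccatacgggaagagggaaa
Mup15: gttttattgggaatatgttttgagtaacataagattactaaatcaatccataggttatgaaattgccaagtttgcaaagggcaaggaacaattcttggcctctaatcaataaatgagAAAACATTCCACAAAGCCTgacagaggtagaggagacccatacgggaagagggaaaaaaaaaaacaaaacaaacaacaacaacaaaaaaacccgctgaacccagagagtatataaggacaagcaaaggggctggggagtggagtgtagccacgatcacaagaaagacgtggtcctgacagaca
Mup3: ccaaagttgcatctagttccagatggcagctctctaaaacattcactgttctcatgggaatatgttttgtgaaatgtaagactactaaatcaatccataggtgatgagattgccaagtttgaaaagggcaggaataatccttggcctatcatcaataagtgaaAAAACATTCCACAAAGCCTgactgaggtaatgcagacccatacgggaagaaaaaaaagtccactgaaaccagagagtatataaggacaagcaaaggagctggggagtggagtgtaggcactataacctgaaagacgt
Mup21: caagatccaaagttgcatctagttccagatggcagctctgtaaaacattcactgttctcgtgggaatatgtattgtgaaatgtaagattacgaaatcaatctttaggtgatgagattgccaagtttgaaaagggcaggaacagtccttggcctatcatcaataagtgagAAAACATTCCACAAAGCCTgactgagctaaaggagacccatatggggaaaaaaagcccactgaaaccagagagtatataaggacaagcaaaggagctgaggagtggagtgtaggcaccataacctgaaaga

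The shared run was 19 bases long and occurred in 11 of 14 promoters of genes named Mup and in no other of the 32544 promoters of the table. It began at base 245 of the Mup7 window, base 118 of the Mup15 window, base 164 of the Mup3 window and base 170 of the Mup21 window, so the annotated start of Mup7 lies further upstream than the others relative to it. Aligned to each other, the Mup7 and Mup15 windows were 97.7% identical over 173 bases, and the Mup3 and Mup21 windows 94.2% over 294 bases. Between these pairs, identity ran from 84.0% over 213 bases (Mup7 and Mup21) to 89.0% over 246 bases (Mup15 and Mup3). None of 4 motifs searched on both strands was found in these 4 windows. They were TTCNNNGAA, the core of a STAT5 site, held by 8.33% of all promoters, and TATAAA, held by 13.6%. The others were ATTGCA from C/EBP sites, held by 8.36%, and TGTTTA from Fox sites, held by 13.4%. Motifs were searched only as written. The stretch tatataag, which TATAAA does not match, stands in the Mup15, Mup3 and Mup21 windows and not in that of Mup7. Absence of these strings thus does not show that such elements are absent.

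Values per library are not used here, since the tables give comparisons of groups; levels below are group means implied by the mean and the ratio of a table, and overlap between the animals of the groups could not be read. The RNA tables each held 39824300 to 41989200 normalized counts in total. Reads at all m6A sites summed to between 74003375 and 80819641 per group for input, and to between 72868528 and 90420947 for IP. A gene was called where the deposited adjusted p was under 0.05. All 8 Mup genes had an adjusted p in all 4 RNA tables, so none was lost to a filter on low values. Hepatocyte markers were all present, 10 of 10, with a median log2 ratio over the list between -0.05 and 0.25 in the 4 comparisons. Single markers were called. Alb was higher in 8-week knockouts, with 0.62 ± 0.18 in the authors' deposited table (adjusted p = 0.0233). With age, Serpina1a was higher and Tat lower in wild types, and Apoa2 was higher and Alb lower in knockouts. At 28 weeks 0 of 10 were called between genotypes. Their part in the Mup values was not tested.

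One group stood apart in its sex-linked RNA. The Y-linked genes Ddx3y, Kdm5d, Eif2s3y and Uty summed to 4965 normalized counts in 8-week knockouts and to 3.49 in 8-week wild types, and at 28 weeks to 4680 in knockouts and 4506 in wild types. Ddx3y, Kdm5d and Uty were each at 0.178 in 8-week wild types. Xist, the RNA of the inactive X chromosome, was at 10192 in 8-week knockouts, 21017 in 8-week wild types, 8903 in 28-week knockouts and 8747 in 28-week wild types. Y-linked RNA and Xist were thus both present in 3 of the groups, while the 8-week wild types held nearly no Y-linked RNA. Genotype at 8 weeks, and age in wild types, cannot be told apart from this difference. The comparison of ages in knockouts has similar Y-linked sums, 4948 at 28 weeks and 4747 at 8 weeks, but within groups these genes varied widely, with an SE between 2.54 and 3.33 on the log2 scale in the authors' deposited table.

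**Figure D1:**
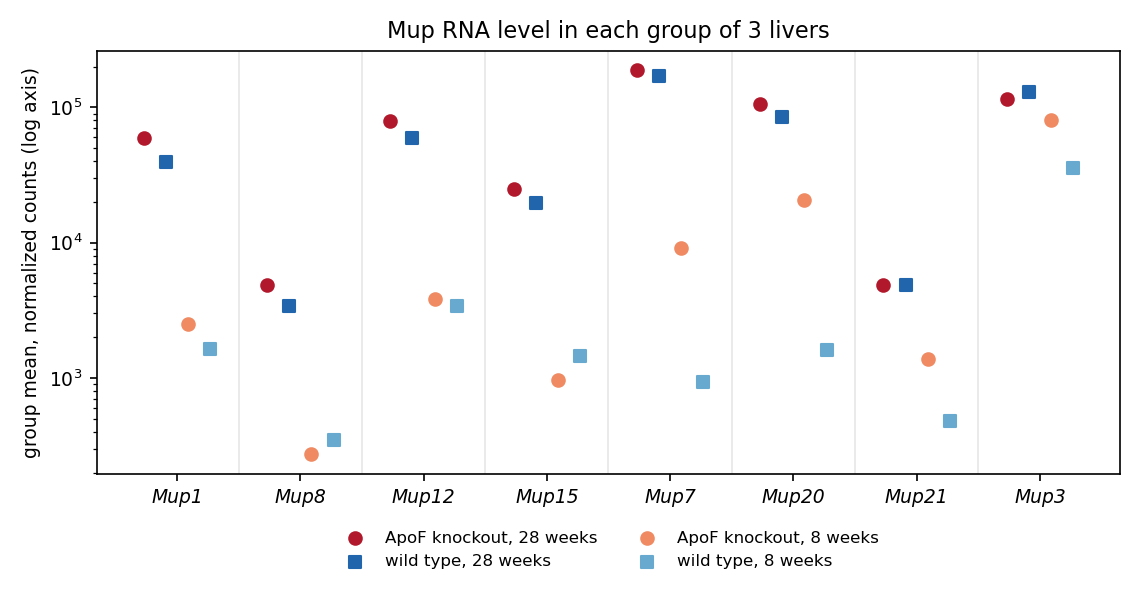
Group means of each Mup gene on a log axis, in normalized counts, for knockout (circles) and wild type (squares) at 28 weeks (dark) and 8 weeks (light), with 3 livers a group and no error shown because values per library are not used. Both 28-week groups lie above both 8-week groups for all 8 genes, and Mup7 and Mup20 have the widest gap between the 8-week genotypes.

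Mup RNA was compared between genotypes at each age. In 8-week livers, Mup20 was 12.8-fold higher in knockouts and was the 1 Mup gene of 8 past the threshold. Of 15214 tested genes, 4.98% were called and 2.48% were called higher. Genotype here cannot be told apart from the Y-linked difference, with sums of 4965 in knockouts and 3.49 in wild types. The 8 log2 ratios ran from -0.61 to 3.67 with a median of 0.88, beside a median of 0.01 over all tested genes. Of the 8, 6 were above 0 and 3 had an unadjusted p under 0.05. Mup20 was at 20544 normalized counts in knockouts and 1609 in wild types, a ratio of 3.67 ± 0.80 in the authors' deposited table (adjusted p = 4.1e-04). The Holm adjustment used here is stricter and took every gene with a p, with no filter on low values. Under it the adjusted p of Mup20 was 0.0780. Mup7, a copy from the middle of the cluster, was at 9188 in knockouts and 930 in wild types, and its ratio of 3.30 ± 1.17 missed the threshold in the authors' deposited table (adjusted p = 0.0777). Mup21 was at 1382 in knockouts and 478 in wild types, with 1.53 ± 0.57 in the authors' deposited table (adjusted p = 0.102). Mup3 was at 80140 in knockouts and 35665 in wild types, with 1.17 ± 0.80 in the authors' deposited table (adjusted p = 0.503). These 4 genes had the highest knockout ratios of the 8. Markers of other cells moved in the same comparison. Of 6 stellate and fibroblast markers 3 were higher in knockouts (Col1a1, Col1a2 and Col3a1), with a summed level of 22038 in knockouts and 10804 in wild types. Of 4 erythroid markers 2 were higher (Hba-a2 and Alas2), with a sum of 12737 in knockouts and 3527 in wild types. Of 5 lymphocyte markers Cd3g was lower, with a sum of 99.9 in knockouts and 236 in wild types. Their part in the Mup values was not tested.

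The other 4 genes had group means closer together. Mup1 was at 2491 in 8-week knockouts and 1650 in 8-week wild types, a ratio of 0.59 with a 95% interval from -1.71 to 2.90. Mup12 was at 3840 in knockouts and 3388 in wild types, at 0.18 (-1.95 to 2.32). Mup15 was at 959 in knockouts and 1460 in wild types, at -0.61 (-2.91 to 1.70). Mup8 was at 272 in knockouts and 348 in wild types, at -0.35 (-2.85 to 2.15). Each of these 4 intervals reaches beyond a 2-fold change in both directions, so the direction is not fixed for any of the 4.

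Reads of the input libraries at the m6A sites gave a second reading of the same RNA. At sites named for these genes alone, input reads of Mup20 came to 68469 in 8-week knockouts and 5215 in 8-week wild types, and those of Mup7 to 17149 in knockouts and 660 in wild types. Scaled to the input reads at all sites of each group, the log2 ratio was 3.64 for Mup20 and 4.63 for Mup7. Mup15 differed in sign between the readings, with 870 input reads in knockouts and 443 in wild types at its own site, a scaled log2 ratio of 0.90, against -0.61 in the authors' deposited table of RNA. The other 7 genes had the same sign in both.

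**Figure D2:**
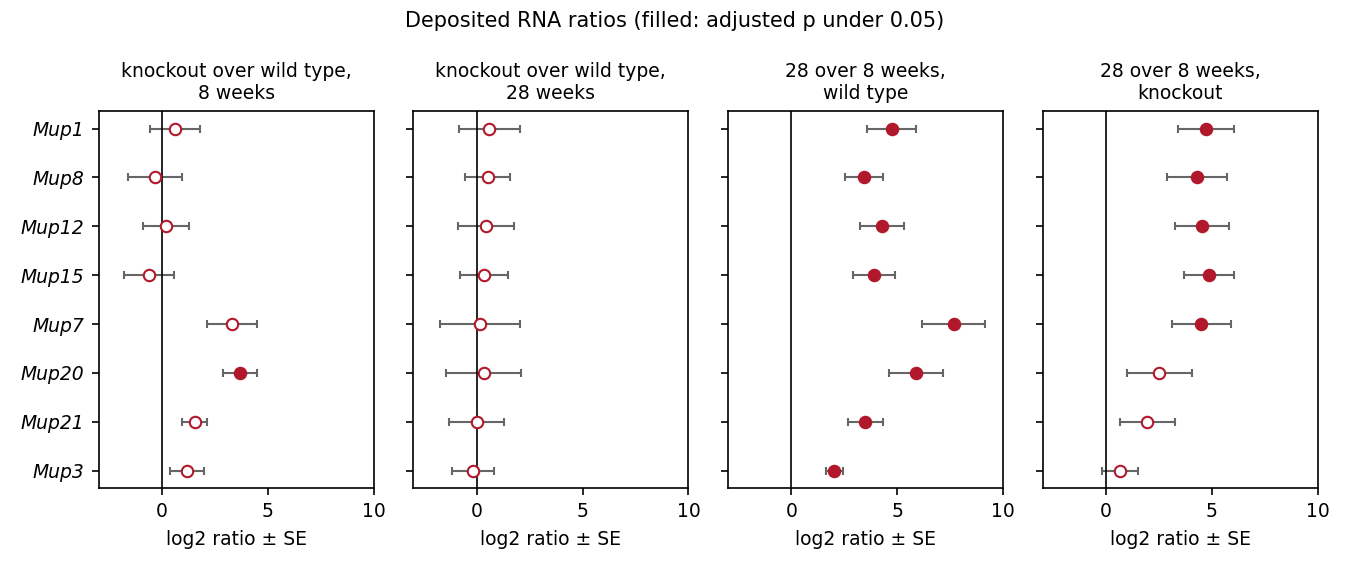
Deposited log2 ratios with their SE for each Mup gene in the 4 comparisons, 3 livers a group; values above 0 mean more RNA in knockouts or at 28 weeks, and filled points have an adjusted p under 0.05. At 8 weeks only Mup20 is filled, at 28 weeks none is, and between ages 8 are filled in wild types and 5 in knockouts.

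By 28 weeks none of the 8 Mup genes was called between genotypes, and none had an unadjusted p under 0.05 in the deposited DESeq2 test; 0.257% of 14391 tested genes were called and 0.0834% were called higher. The ratios lay between -0.17 (Mup3) and 0.60 (Mup1), with a median of 0.34 beside 0.01 over all tested genes. Mup20 was at 106671 normalized counts in knockouts and 84706 in wild types, a ratio of 0.33 with a 95% interval from -3.15 to 3.82. Mup7 was at 188930 in knockouts and 170765 in wild types, at 0.15 (-3.58 to 3.88). Mup1 was at 59624 in knockouts and 39370 in wild types, at 0.60 (-2.25 to 3.44), and Mup12 at 79565 in knockouts and 59222 in wild types, at 0.43 (-2.17 to 3.02). Such intervals leave room for changes of several fold in either direction. The 4 Y-linked genes also varied widely here, with an SE between 2.28 and 3.30 on the log2 scale in the authors' deposited table. Of 5 endothelial markers 2 were called lower in knockouts (Stab1 and Stab2), with a summed level of 6102 in knockouts and 8300 in wild types. Their part in the Mup values was not tested.

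Mup15 was at 25010 in knockouts and 19671 in wild types, Mup8 at 4828 in knockouts and 3395 in wild types, and Mup21 at 4824 in knockouts and 4834 in wild types. Mup3 was at 115869 in knockouts and 130470 in wild types. Their ratios were 0.35, 0.51, -0.00 and -0.17 in that order, and the adjusted p was 0.9998 for all 8 genes in the authors' deposited table. The SE of the 8 ratios ran from 0.98 to 1.90 in the authors' deposited table. That was larger than the SE of 96.2% to 99.3% of genes with a mean of at least 10 normalized counts. Over all tested genes the median SE was 0.254. Input reads at the genes' own sites differed in sign from the RNA ratio for Mup8, with 37260 in knockouts and 51585 in wild types, and for Mup15, with 27307 in knockouts and 27354 in wild types, and had the same sign for the other 5 genes with a site of their own.

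Whether the knockout ratio changed between ages was tested as the difference of the 2 ratios, 28 minus 8 weeks, over the 17139 genes with both, of which 1.25% were called. None of the 8 Mup genes was called by this Wald test with Benjamini-Hochberg adjustment, and none had an unadjusted p under 0.05. Mup20 came nearest, with a ratio of 0.33 at 28 weeks and 3.67 at 8 weeks, a difference of -3.34 ± 1.95 (adjusted p = 0.604). For Mup7 the ratios were 0.15 at 28 weeks and 3.30 at 8 weeks, a difference of -3.16 ± 2.23 (adjusted p = 0.724). A knockout difference at 8 weeks that is lost by 28 weeks is therefore not shown for any of these genes.

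In wild types all 8 Mup genes rose at 28 weeks, by 4.07-fold (Mup3) to 204-fold (Mup7), where 4.24% of 13474 tested genes were called and 2.37% were called higher. Their median log2 ratio was 4.09, beside -0.01 over all tested genes. Mup7 was at 178981 normalized counts at 28 weeks and 877 at 8 weeks, a ratio of 7.67 ± 1.50 in the authors' deposited table (adjusted p = 6.5e-05). Mup20 was at 88791 at 28 weeks and 1517 at 8 weeks, with 5.87 ± 1.27 in the authors' deposited table (adjusted p = 4.4e-04). Mup1, which circulates and has also been studied for effects on glucose use, was at 41258 at 28 weeks and 1555 at 8 weeks, with 4.73 ± 1.16 in the authors' deposited table (adjusted p = 0.0031). These 3 genes had the highest ratios of the 8.

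The remaining members rose less in wild types. Mup12 was at 62064 at 28 weeks and 3194 at 8 weeks, with a ratio of 4.28 ± 1.03 in the authors' deposited table (adjusted p = 0.0026). Mup15 was at 20617 at 28 weeks and 1376 at 8 weeks, with 3.91 ± 0.98 in the authors' deposited table (adjusted p = 0.0043). Mup21 was at 5066 at 28 weeks and 450 at 8 weeks, with 3.49 ± 0.83 in the authors' deposited table (adjusted p = 0.0019). Mup8 was at 3558 at 28 weeks and 328 at 8 weeks, with 3.44 ± 0.89 in the authors' deposited table (adjusted p = 0.0058). Mup3 was at 136705 at 28 weeks and 33621 at 8 weeks, with 2.02 ± 0.40 in the authors' deposited table (adjusted p = 1.0e-04). Under Holm adjustment the calls of Mup3 and Mup7 alone were left. This comparison and that of genotypes at 8 weeks share the 8-week wild-type libraries, so the 2 sets of ratios are not independent of each other, and the Y-linked sums beside this one were 4722 at 28 weeks and 3.29 at 8 weeks. Of 3 erythroid markers tested 1 was higher at 28 weeks (Alas2), as was 1 of 5 cholangiocyte markers (Sox9); their part was not tested.

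In knockouts, 5 of the 8 Mup genes rose at 28 weeks, where 4.49% of 14798 tested genes were called and 2.03% were called higher. The ratios ran from 0.68 to 4.85 with a median of 4.40, beside -0.00 over all tested genes. Mup15 was at 26410 at 28 weeks and 916 at 8 weeks, a ratio of 4.85 ± 1.18 in the authors' deposited table (adjusted p = 0.0028). Mup1 was at 62925 at 28 weeks and 2381 at 8 weeks, with 4.72 ± 1.34 in the authors' deposited table (adjusted p = 0.0157). Mup12 was at 83977 at 28 weeks and 3671 at 8 weeks, with 4.52 ± 1.28 in the authors' deposited table (adjusted p = 0.0149). Mup7 was at 199357 at 28 weeks and 8782 at 8 weeks, with 4.50 ± 1.40 in the authors' deposited table (adjusted p = 0.0330). Mup8 was at 5099 at 28 weeks and 260 at 8 weeks, with 4.29 ± 1.40 and an adjusted p of 0.0499 in the authors' deposited table, which became 0.0603 with no filter on low values. Its call thus depends on that filter, and under Holm adjustment none of the 5 calls was left.

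Mup20, Mup21 and Mup3 were not called with age in knockouts. Mup20 was at 112561 at 28 weeks and 19635 at 8 weeks, a ratio of 2.52 with a 95% interval from -0.51 to 5.54. Mup21 was at 5094 at 28 weeks and 1320 at 8 weeks, at 1.95 (-0.59 to 4.49). Mup3 was at 122466 at 28 weeks and 76596 at 8 weeks, at 0.68 (-0.99 to 2.35). Markers of other cells moved in this comparison too. Of 6 stellate and fibroblast markers 4 were called lower, with a summed level of 7325 at 28 weeks and 21051 at 8 weeks. Of 5 endothelial markers 3 were called lower (Stab2, Lyve1 and Pecam1), with a sum of 6458 at 28 weeks and 9055 at 8 weeks. Of 4 erythroid markers Hba-a2 was called lower, with a sum of 8079 at 28 weeks and 12164 at 8 weeks. Their part in the Mup values was not tested. In whole liver, fewer cells of a type and less RNA per cell cannot be told apart.

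A sum over the 8 genes is less exposed to how reads were split among them, but is still open to a split with the other 14 Mup rows. The summed Mup RNA came to 118815 normalized counts in 8-week knockouts and 45527 in 8-week wild types, 2.61-fold. That was 0.276% of all normalized counts in knockouts and 0.111% in wild types. At 28 weeks the sum was 585320 in knockouts and 512433 in wild types, 1.14-fold, or 1.46% and 1.30% of all counts in knockouts and wild types. From the age tables, the sum was 537040 at 28 weeks and 42917 at 8 weeks in wild types, 12.5-fold, and 617888 at 28 weeks and 113562 at 8 weeks in knockouts, 5.44-fold. The sums carry no test. With all 22 Mup rows the 8-week genotype ratio was 1.61-fold and the wild-type age ratio 6.66-fold. The other 14 rows alone summed to 109331 in 8-week knockouts and 96134 in 8-week wild types, 1.14-fold. With age these 14 rows were 3.89-fold higher in wild types and 3.91-fold in knockouts.

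The make-up of the sum differed between ages. Mup3 supplied 67.4% of it in 8-week knockouts and 78.3% in 8-week wild types, and at 28 weeks 19.8% in knockouts and 25.5% in wild types. Mup7 supplied 7.73% in 8-week knockouts and 2.04% in 8-week wild types, and at 28 weeks 32.3% in knockouts and 33.3% in wild types. Mup20 supplied 17.3% in 8-week knockouts and 3.53% in 8-week wild types, and at 28 weeks 18.2% in knockouts and 16.5% in wild types. These shares are of counts and are not set per length of transcript. Leaving out Mup3 and Mup21 moved the 8-week genotype ratio to 3.97-fold, the wild-type age ratio to 44.7-fold and the knockout age ratio to 13.8-fold.

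Of the 14 other Mup rows, 13 were tested in each table; Mup4 had no adjusted p in any of them, with a mean of 0 to 4.47 normalized counts over the libraries of a table. At 8 weeks 1 was called higher in knockouts, Mup17, at 511 normalized counts in knockouts and 39.4 in wild types (log2 ratio 3.70 ± 1.19 in the authors' deposited table, adjusted p = 0.0426). Mup16 was called lower, at 136 in knockouts and 539 in wild types (-1.99 ± 0.41 in the authors' deposited table, adjusted p = 1.4e-04). At 28 weeks 0 of the 13 were called between genotypes in the deposited DESeq2 test. Between ages 7 were called higher at 28 weeks in wild types (Mup2, Mup5, Mup9, Mup10, Mup14, Mup17 and Mup19) and 3 in knockouts (Mup2, Mup16 and Mup18), with 0 called lower in both.

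**Figure D3:**
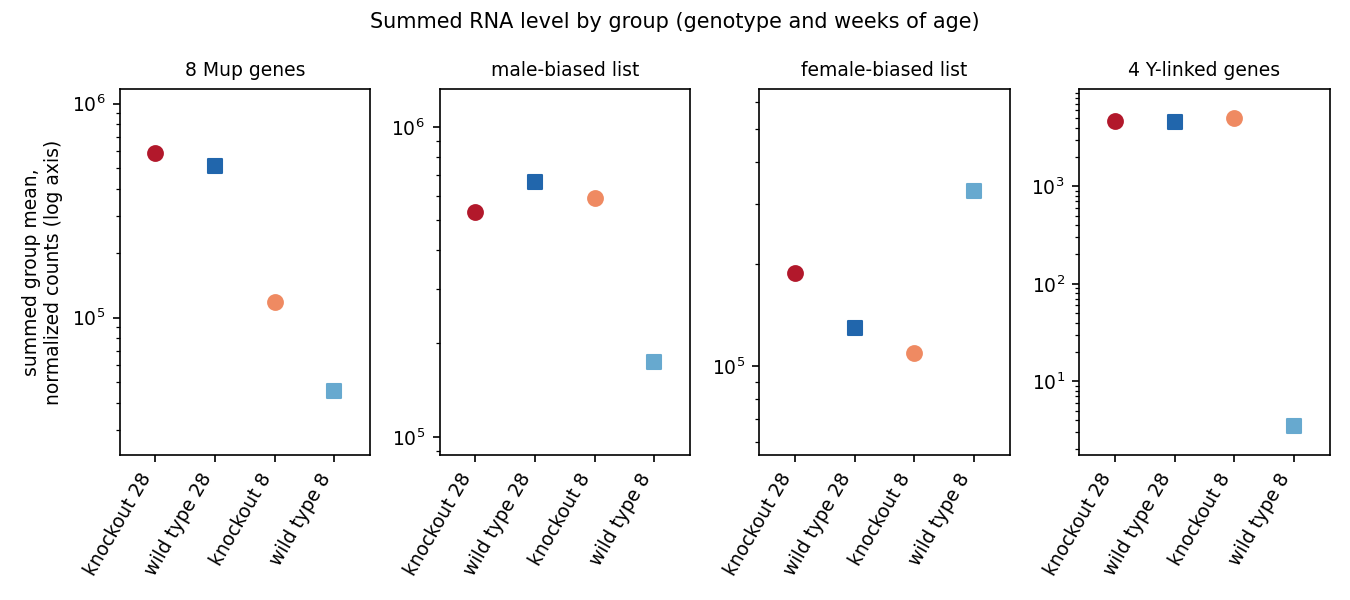
Summed group means in normalized counts, each panel with its own log axis, for the 8 Mup genes, male-biased and female-biased liver genes and 4 Y-linked genes, in knockout (circles) and wild type (squares) at 28 and 8 weeks. The 8-week wild types are lowest for Mup, male-biased and Y-linked RNA and highest for female-biased RNA, and the 8-week knockouts are below both 28-week groups for Mup RNA but near them for male-biased and Y-linked RNA.

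Other genes of male-biased liver expression were set beside the Mup genes. At 8 weeks 12 of 25 tested male-biased genes were called higher in knockouts and 0 lower, with a median log2 ratio of 1.81. Cyp4a12a, an arachidonic acid hydroxylase, was at 2489 normalized counts in knockouts and 1.92 in wild types (10.34 ± 1.62 in the authors' deposited table, adjusted p = 6.6e-08). C8a, a complement subunit, was at 38853 in knockouts and 10389 in wild types (1.90 ± 0.26 in the authors' deposited table, adjusted p = 2.3e-10). In wild types, 18 of 26 were called higher at 28 weeks and 0 lower, with a median of 3.03. In knockouts 1 of 25 was called between ages, Cyp7b1, an oxysterol hydroxylase, at 4894 at 28 weeks and 387 at 8 weeks (3.66 ± 1.08 in the authors' deposited table, adjusted p = 0.0218), and the list's median was 0.54. At 28 weeks 0 of 26 were called between genotypes in the deposited DESeq2 test, with a median of -0.26.

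Summed levels of the Mup genes and of the male-biased list differed in their change with age in knockouts. The male-biased list summed to 590692 in 8-week knockouts and 174405 in 8-week wild types. In knockouts it summed to 559646 at 28 weeks and 564493 at 8 weeks, whereas the Mup sum was 5.44-fold higher at 28 weeks. Serpina1e weighs heavily in the list's sum, at 349844 of 529915 in 28-week knockouts beside their wild types. With age in knockouts, Elovl3 had a ratio of 3.57 ± 2.01, Sult5a1 2.13 ± 0.77 and Serpina12 2.07 ± 1.18, none called. These and Cyp7b1 have the smallest p of the list, whose median was 0.54. Mup3, at 0.68, was not called either. Female-biased genes had 0 of 35 called higher and 15 lower in 8-week knockouts, with a median of -1.61. Among them Cyp3a41a, a cytochrome P450, was at 686 in knockouts and 29691 in wild types (-5.44 ± 0.30 in the authors' deposited table, adjusted p = 1.7e-69). In 28-week livers 11 of the 35 had an adjusted p and 0 were called between genotypes. Between ages 2 of 30 tested were lower in wild types, Tox and Cyp4a14, and 1 of 12 tested was higher in knockouts, Ntrk2. The part of sex in these lists was not tested.

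Genes upstream of Mup transcription were also read. Of 17 growth hormone signalling genes, 2 were lower in 8-week knockouts, Stat5a and Prlr, where 4.98% of 15214 tested genes were called. Stat5a, a transducer of growth hormone, was at 493 in knockouts and 862 in wild types (-0.81 ± 0.18 in the authors' deposited table, adjusted p = 8.8e-04), and the list's median was -0.36. At 28 weeks 0 of 17 were called between genotypes, while between ages Stat3 was higher in 28-week wild types and Igfbp1 lower in 28-week knockouts. Among transcriptional regulators tested at 8 weeks, Tox was lower in knockouts and 0 were higher.

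Among those regulators Cebpa, which encodes C/EBP alpha, was higher at 28 weeks in knockouts, at 23821 against 15545 at 8 weeks (0.62 ± 0.15 in the authors' deposited table, adjusted p = 0.0034). Tox was lower with age in wild types, and 0 of 20 regulators were called between genotypes at 28 weeks. Among 9 other lipocalins tested at 8 weeks, Orm3, an acute-phase protein, and Ptgds, a prostaglandin synthase, were lower in knockouts and 0 were higher. With age, 1 of 10 was higher in wild types (Orm1) and 1 of 10 in knockouts (C8g), and the list's median was -0.05 in wild types and 0.71 in knockouts. At 28 weeks 0 of 10 were called between genotypes.

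Likeness was measured as the root mean square difference between a gene's 4 log2 ratios and the medians of the 8 Mup genes, which were 0.88 and 0.34 for genotype at 8 and 28 weeks and 4.09 and 4.40 for age in wild types and knockouts. Over 10555 other genes with a mean of at least 100 in each table, Mup19 was nearest at 0.294, then Cyp7b1 at 0.564, Dpy19l3 at 1.17, Mup14 at 1.18, Susd4 at 1.23 and Mup9 at 1.24. Cyp7b1 had ratios of 0.19, -0.16, 4.03 and 3.66 in that order. The 8 Mup genes themselves stood at 0.370 (Mup12), 0.407 (Mup1), 0.705 (Mup8), 0.783 (Mup15), 1.31 (Mup21), 1.90 (Mup20), 2.15 (Mup3) and 2.16 (Mup7). The 4 comparisons share groups, so this is a description with no test.

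Turning to m6A, each site table gives IP and input reads summed over the 3 animals of a group. The deposited site p-values equalled those of counting error alone, with a median ratio of 0.999 between the deposited and the recomputed z, so they hold no spread between animals and say nothing of how the 3 livers differed. The site tables give no positions, so sites are named by gene. Of the sites of the 8 genes, 18 at 8 weeks, 17 at 28 weeks and 18 in the wild-type age table were named for these genes alone, and 6, 4 and 5 in the same order also for other Mup genes. By median, the sites named for the 8 genes alone were less enriched in IP than all sites. Depth was not matched here, and these Mup sites are more deeply read. Their median ratio of IP to input reads was 0.878 in 8-week knockouts and 0.898 in 8-week wild types, beside 1.20 in knockouts and 1.05 in wild types over all sites. At 28 weeks it was 0.969 in knockouts and 0.925 in wild types, beside 1.20 in knockouts and 1.27 in wild types over all sites.

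**Figure D4:**
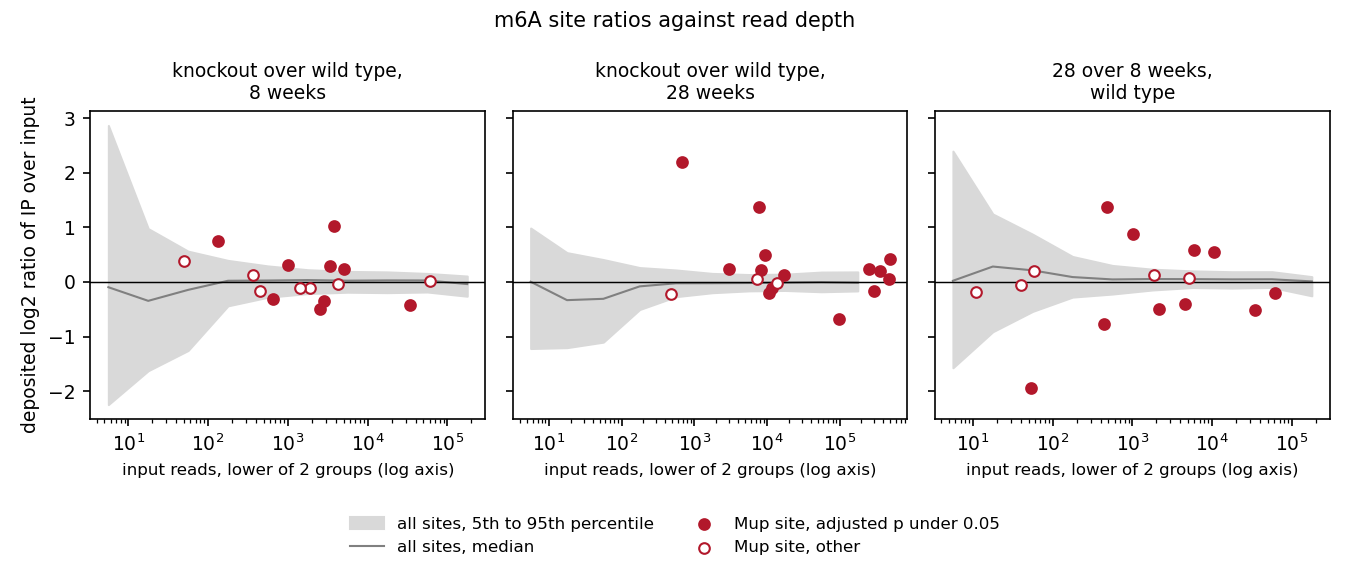
Deposited log2 ratio of IP over input between groups against the input reads of the shallower group (log axis), for the Mup sites named for the 8 genes alone (points, filled where the adjusted p is under 0.05) over the 5th to 95th percentile and median of all sites of like depth (grey). Mup sites lie outside the grey band in both directions in all 3 comparisons, with the highest at 2.20 at 28 weeks.

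At 8 weeks, 9 of 16 tested sites were called, 5 higher and 4 lower in knockouts, where 10.9% of 25727 tested sites were called. These sites are deeply read, with a median of 3679 input reads in knockouts and 2024 in wild types beside 159 in knockouts and 163 in wild types over all sites, and a test on counting error calls more at depth. Among sites with at least 1000 input reads in both groups, 7 of 11 Mup sites were called, beside 24.5% of all 7401. The median size of the log2 ratio there was 0.29 for Mup sites and 0.08 for all. A site shared by Mup15 and Mup7 had an IP to input ratio of 0.877 (7890 over 9001 reads) in knockouts and 0.395 (1516 over 3839) in wild types, a log2 ratio of 1.02 in the authors' deposited table. It ranked 26 from the highest of the 25727. Called sites of 1 gene went both ways, as for Mup1, whose sites included ratios of 0.29 and -0.50 in the authors' deposited table.

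The deep site of Mup20, the gene called for RNA, had 87003 IP and 67001 input reads in 8-week knockouts and 5138 IP and 5080 input reads in 8-week wild types, ratios of 1.30 in knockouts and 1.01 in wild types, and a log2 ratio of 0.23 in the authors' deposited table (adjusted p = 4.0e-13). Mup12, at 0.755 in knockouts and 0.915 in wild types, was lower at -0.42 in the authors' deposited table (adjusted p = 1.3e-153). Mup3 had 144408 IP over 142320 input reads in knockouts and 55891 over 61124 in wild types, and its log2 ratio of 0.02 was not called in the authors' deposited table (adjusted p = 0.285).

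At 28 weeks, where no Mup RNA was called between genotypes, 14 of 17 sites were called, 10 higher and 4 lower in knockouts, where 9.18% of 18751 tested sites were called. With at least 1000 input reads in both groups, 13 of 15 Mup sites were called, beside 18.0% of all 7255, and the median size of the log2 ratio was 0.21 for Mup sites and 0.07 for all. A Mup21 site had the highest log2 ratio of all 18751, 2.20 in the authors' deposited table (adjusted p = 1.3e-100), with 1908 IP over 687 input reads in knockouts (2.78) and 547 over 868 in wild types (0.630). The other 3 Mup21 sites had log2 ratios of 0.24, -0.21 and -0.11 in the authors' deposited table, so the gene's sites did not move together. A Mup8 site was the 4th highest, at 1.38 in the authors' deposited table, with 16073 IP over 7701 input reads in knockouts (2.09) and 25041 over 29827 in wild types (0.840). At this site the input reads were fewer in knockouts by more than the IP reads were.

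A site shared by Mup15 and Mup7 was lower in 28-week knockouts, with 77543 IP over 138567 input reads in knockouts (0.560) and 92702 over 99221 in wild types (0.934), a log2 ratio of -0.68 in the authors' deposited table. Whether it is the same site as at 8 weeks cannot be read from the tables. Mup12 was at 0.948 in knockouts and 0.744 in wild types, with 0.41 in the authors' deposited table, while the Mup12 site at 8 weeks had the reverse sign. Whether these are the same Mup12 site cannot be read either. Of the sites of the 8 genes, 3 could be followed across tables, since their wild-type sums recur. At the deep Mup20 site the ratio of IP to input was 1.36 in 28-week knockouts, 1.24 in 28-week wild types, 1.30 in 8-week knockouts and 1.01 in 8-week wild types. At a Mup15 site it was 1.41 in 28-week knockouts, 1.35 in 28-week wild types, 1.94 in 8-week knockouts and 1.98 in 8-week wild types, with a log2 ratio of -0.77 between ages in wild types in the authors' deposited table. At a site named for Mup15 and Mup2 it was 0.842 in 28-week knockouts, 0.865 in 28-week wild types, 0.903 in 8-week knockouts and 0.784 in 8-week wild types. The deposited log2 ratio of this shared site was 0.02 between genotypes at 28 weeks. Between ages in wild types it was -0.08 in the authors' deposited table (adjusted p = 0.0087). Both signs are opposite to those of the read ratios, whose log2 offsets from the deposited values were -0.06 and 0.22 in that order. In both genotypes the ratio of IP to input reads at the Mup15 site was lower at 28 weeks than at 8 weeks.

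Between ages in wild types, 10 of 15 tested sites were called, 4 higher and 6 lower at 28 weeks, where 11.3% of 20628 tested sites were called. With at least 1000 input reads in both groups, 7 of 9 Mup sites were called, beside 23.7% of all 7097, and the median size of the log2 ratio was 0.50 for Mup sites and 0.08 for all. Among the Mup sites the highest log2 ratio was at a Mup21 site, 1.38 in the authors' deposited table, with 4079 IP over 3681 input reads at 28 weeks (1.11) and 175 over 484 at 8 weeks (0.362). The lowest was at a Mup15 site, -1.95 in the authors' deposited table, with 7894 IP over 10323 input reads at 28 weeks (0.765) and 138 over 54 at 8 weeks (2.56), where the 8-week ratio rests on few reads. The deep Mup20 site, at 1.24 at 28 weeks and 1.01 at 8 weeks, was not called at 0.08 in the authors' deposited table (adjusted p = 0.0628).

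Input reads at the sites of the 8 genes alone made up 0.409% of those at all sites in 8-week knockouts and 0.170% in 8-week wild types, 2.41-fold. At 28 weeks they made up 2.82% in knockouts and 2.77% in wild types, 1.02-fold. In the wild-type age table they made up 2.92% at 28 weeks and 0.171% at 8 weeks, 17.1-fold. These folds stand beside 2.61, 1.14 and 12.5 from the summed RNA levels. IP reads scaled in the same way were 2.45-fold higher in 8-week knockouts, 1.11-fold in 28-week knockouts and 14.7-fold at 28 weeks in wild types.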

How the data were processed

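Libraries were stranded and carried unique molecular identifiers, per the labels' protocols; HISAT2, StringTie and DESeq are named, per the submitters' processing notes, without versions. For genome build, annotation, site caller and scaling of the sites, the sources used here give nothing. Per the file headers, the signal column of an RNA table is the authors' mean over the 6 input libraries compared, of counts divided by size factors. The log2 ratios, their SE and each p-value with its adjusted p were deposited by the authors, from the DESeq2 Wald test for RNA. Each deposited site count is a sum of reads over the libraries of a group, not normalized.

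The files state no numerator. The Pearson r of RNA ratios with ratios of input reads at sites was -0.72 (11480 genes), -0.56 (11398) and -0.71 (11378) at 8 weeks, at 28 weeks and for wild-type age (genes are not independent replicates), so RNA signs were turned and site signs kept. The 4 ratios then closed to a median of 0.00357, against 0.487 with 1 table turned, over 13625 genes. Group means follow from mean and ratio; the 2 tables holding a group differed by 4.41% to 5.75% in its level, by their scaling.

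No values per library were used, so no count model was refitted and the authors' tests stand; with 3 animals a group, nothing more is known of their spread than the deposited SE. Intervals are ratio ± 1.96 SE. The difference of knockout ratios was tested by a Wald test with Benjamini-Hochberg adjustment, tested on simulated data, as was the site test, which adds 0.5 to each count. Genes, gene lists and motifs were chosen with earlier results of these data known. All 8 Mup genes are named; of lists, up to 4 genes with the smallest p could be named, and collagen, Y-linked and other Mup genes beyond that were named after their values were seen. One called member of the list of transcriptional regulators is not reported here. The m6A table of knockout age, with 4 columns of sums that could not be matched to a group, is not used here. All 22 Mup symbols matched RefSeq; older numbers recur among its synonyms, so a row may be another copy in another annotation. Tools were scipy 1.17.1, pandas 2.3.3, numpy 2.4.6, Biopython 1.88 and matplotlib 3.10.9 under Python 3.11.15.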

Additional observations from a re-analysis of the deposited data

How the results depend on the processing

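No paired analysis was possible because the tables give no values per library and the groups compared share no animal; for the same reason no replicate could be left out. Under Holm adjustment 0 Mup genes were called in 8-week knockouts against 1 by the deposited adjusted p. For age it was 2 against 8 in wild types and 0 against 5 in knockouts. This adjustment is stricter by construction, and it was made over every gene with a p, with no filter on low values. The summed ratio of genotypes at 8 weeks, 2.61, became 3.97 without Mup3 and Mup21, 3.92 without Mup3 alone and 1.61 over all 22 Mup rows. The summed age ratio became 44.7 without Mup3 and Mup21 and 6.66 over all Mup rows in wild types, from 12.5, and 13.8 without Mup3 and Mup21 in knockouts, from 5.44. Mup8 with age in knockouts lost its call with no filter on low values (adjusted p = 0.0603). No ratio changed sign past the threshold. Counts of called sites moved by less than 1.5 times with a recomputed p and with minimums of 50 and 500 input reads. In 8-week wild types some sites rest on few input reads, down to 11 at a Mup8 site with an adjusted p and 1 at a Mup21 site with none.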
